A study of Homo sapiens with 6 samples.

Results

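The genes described here encode the ADAM, ADAMTS and matrix metalloproteases, the ADAMTS-like glycoproteins and the tissue inhibitors of metalloproteases (TIMP) in cells of RKO, a human line established from a colorectal carcinoma. They were chosen by symbol, with earlier results of these data known: each protein-coding row named ADAM, ADAMTS, ADAMTSL, MMP or TIMP with a number. That gave 18 genes of the 2885 rows of the deposited table, 13 proteases, 2 ADAMTS-like glycoproteins and 3 inhibitors. A non-coding row, ADAMTS9-AS1, also carries a family name and was not counted.

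RNA sequencing had been made from 6 libraries of RKO cells in 2 groups of 3. The controls were labelled wild type with the hairpin shNC. The others were labelled KMT5A knockdown with the hairpin shKMT5A. KMT5A methylates lysine 20 of histone H4, and by its title the study concerns its methylation of IRF3, a transcription factor of the interferon response. The labels do not say whether the libraries of a group came from separate cultures or how many hairpins were used, so the spread behind every p-value may be purely technical.

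The table held only genes that the authors had selected. Its smallest absolute log2 fold change was 1.0 and its largest adjusted p was 0.0499, both in the authors' deposited table. Of the 72 protein-coding genes that GENCODE 29 lists under these names, 54 were not among the rows and were not analysed here. How large a share of all protein-coding genes reached the table was not computed, so this count has no background. The controls held 1363382 to 1369655 reads over all rows, and the libraries labelled shKMT5A held 1891460 to 1980866; total depth is unknown. KMT5A itself went against its label, with 1283 ± 33.8 normalized counts (read counts divided by 1 factor per library) in the controls against 3737 ± 386 under the shKMT5A label (SD, n = 3 each; limma adjusted p = 1.00e-08; exact two-sided permutation p = 0.1, the smallest that 3 against 3 allows). The log2 fold change of KMT5A, 1.54 in the deposited scale, was 0.94 with TMM scaling and 0.497 with DESeq2 on the reads of all 6 libraries, so its direction held while its size depended on the scaling. Every direction below compares libraries by their labels, and the group labelled shKMT5A is the one with more KMT5A transcript.

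Metalloproteases of these families hold a zinc ion in the active site with histidines of a short conserved motif. ADAM proteins sit in the cell membrane and release the outer parts of other membrane proteins, a step called shedding, while ADAMTS proteins are secreted, bind the matrix and cut proteoglycans, procollagens or von Willebrand factor. Matrix metalloproteases (MMP) are made as inactive precursors and together can degrade most matrix proteins. TIMP proteins block the active site of many of these enzymes, and in tumour tissue much of the protease and inhibitor RNA comes from stromal cells as well as from cancer cells.

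The motif separates the proteases from the other members at the level of the transcript. In the longest open reading frame of their GENCODE 29 transcripts, 13 of the 13 proteases encode histidine, glutamate, any 2 residues, histidine, any 5 residues and histidine. The residue at the eighth position was glycine in 11 of them and asparagine in the other 2, ADAMTS9 and ADAMTS15. ADAMTSL1, ADAMTSL5 and the 3 TIMP genes encode no such motif. The coding stretches of 5 members are shown because they include the members with the deepest losses and the member with the most reads among those that rose. Capitals mark the codons of the 3 histidines.
ADAM12: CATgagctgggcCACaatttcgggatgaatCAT
ADAM19: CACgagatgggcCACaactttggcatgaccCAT
ADAMTS2: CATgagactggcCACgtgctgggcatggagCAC
ADAMTS14: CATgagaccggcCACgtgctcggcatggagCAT
ADAMTS13: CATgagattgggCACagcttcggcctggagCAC
ADAMTS2 and ADAMTS14, both procollagen peptidases, shared 30 of these 33 bases, ADAM12 and ADAM19 shared 26, and ADAM12 and ADAMTS2 shared 21. ADAMTS17, whose stretch is not printed, shared 28 with ADAM12 and 28 with ADAM19. Likeness in this stretch did not go with direction throughout: ADAMTS2 and ADAMTS14 both fell, while ADAMTS17 rose and ADAM12 and ADAM19 fell. The stretches of ADAM28, ADAMTS9, ADAMTS15, MMP1 and MMP13 were not compared.

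Of the 18 members, 8 were higher and 10 were lower in the libraries labelled shKMT5A (limma, adjusted p under 0.05 over all 2885 genes). Among all tested genes, 57.4% were higher and 42.6% lower, and 99.9% passed in either direction, so passing is no result about the members. The groups did not overlap for any of the 18, against 99.7% of the table. The median log2 fold change of the members was -1.21 and that of all tested genes was 1.13. Genes with an absolute log2 fold change under 1.0 in the authors' fit were absent, so each median lay on the side with more genes. The gap between these medians is thus no measure of a typical difference. The median absolute values were 2.37 and 1.75. By role, the proteases had 6 higher and 7 lower and the inhibitors 1 higher and 2 lower. DESeq2 was also run on recovered reads, with scaling set within the preselected rows. It shifted the log2 fold changes of all genes by a median of -1.04 with all 6 libraries and -1.02 without shKMT5A replicate 3. Past the threshold were then 891 higher and 1229 lower genes with all 6, and 786 and 1229 without that replicate. The remaining genes were not called, and the median log2 fold change of all genes was 0.092 and 0.10. All 18 members kept their direction in both. Of the members, 7 were called higher and 10 lower with all 6 libraries, and 6 and 10 without that replicate.

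**Figure D1:**
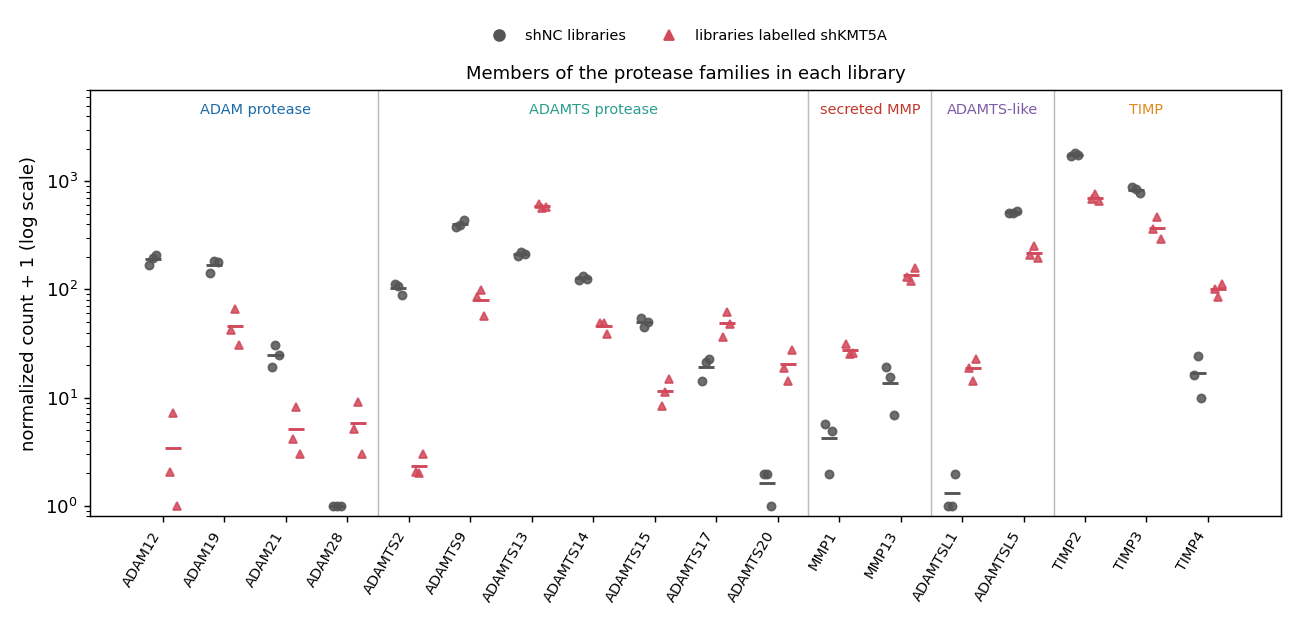
Normalized counts plus 1 of the 18 members, on a log axis, in each shNC library (circles) and each library labelled shKMT5A (triangles), with group means as bars, grouped by role. The groups do not overlap for any member, and ADAM12 and ADAMTS2 drop from means of 189 and 103 to 2.40 and 1.35.

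Both collagenases in the table rose. MMP1, interstitial collagenase, and MMP13, collagenase 3, cut fibrillar collagen and lie in the MMP cluster of chromosome 11 (GRCh38, minus strand), at 102789920 to 102798160 and 102942995 to 102955734, with 144835 bases between them. MMP13 had 18.1, 14.4 and 5.90 normalized counts in shNC replicates 1 to 3 and 129, 118 and 156 in those labelled shKMT5A. Every library labelled shKMT5A was thus above every control, a 10.5-fold difference of the means (12.8 ± 6.26 and 134 ± 19.7; log2 fold change 3.41 ± 0.34 SE, adjusted p = 3.00e-06). MMP1 was scarcer, with 4.76, 0.963 and 3.93 normalized counts in the controls against 30.4, 24.6 and 24.8 under the shKMT5A label. Its controls rested on 10 reads in all, so the 8.26-fold ratio had a 95% counting interval of 4.26 to 17.9 (log2 fold change 2.85 ± 0.44 SE, adjusted p = 8.59e-05). The other genes of the 2 MMP classes, 21 in GENCODE 29, among them all 6 membrane-type MMP genes, were not among the rows.

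ADAM genes mostly fell, and the strongest fall was that of ADAM12. ADAM12 (chromosome 10, 126012381 to 126388455, minus strand), also called meltrin alpha, sheds growth factor precursors and cuts insulin-like growth factor binding proteins. It had 166, 194 and 208 normalized counts in the controls against 1.05, 6.14 and 0 under the shKMT5A label. Only 7 reads remained in the latter group, of which 6 were in replicate 2, and the 79.1-fold difference carried a counting interval of 38.1 to 198. The log2 fold change of -6.28 ± 0.58 (SE, adjusted p = 1.40e-06) was the 26th lowest of the 2885; it was -7.05 without shKMT5A replicate 2 and -5.63 without shKMT5A replicate 3.

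ADAM19, or meltrin beta, which sheds neuregulins, fell less. Its normalized counts were 142, 183 and 180 in the controls against 40.8, 65.5 and 29.8 under the shKMT5A label, a 3.71-fold difference (log2 fold change -1.93 ± 0.25 SE, adjusted p = 2.50e-05). ADAM21, known mainly from testis, had 18.1, 29.8 and 23.6 against 3.14, 7.17 and 1.99 (log2 fold change -2.39 ± 0.42 SE, adjusted p = 2.63e-04). For all 3 falling ADAM genes, replicate 2 was the highest and replicate 3 the lowest of the libraries labelled shKMT5A. ADAM28, a lymphocyte-associated ADAM, was the one that rose and is a low-count member (a mean under 10 normalized counts over the 6 libraries). None of the controls held a read, and under the shKMT5A label the normalized counts were 4.19, 8.19 and 1.99. With the control group set at the floor of 3 counts in all, the ratio was 4.96-fold. It leaves out the counting error of the 14 reads under the shKMT5A label and is no lower limit. The adjusted p was 2.44e-04 with limma, 0.0462 with DESeq2 on the reads of all 6 libraries and 0.0631 without shKMT5A replicate 3. Over the alternatives it ranged from 4.68e-05 to 0.0631. ADAM10 and ADAM17, the main sheddases, were not among the rows and were not analysed here.

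**Figure D2:**
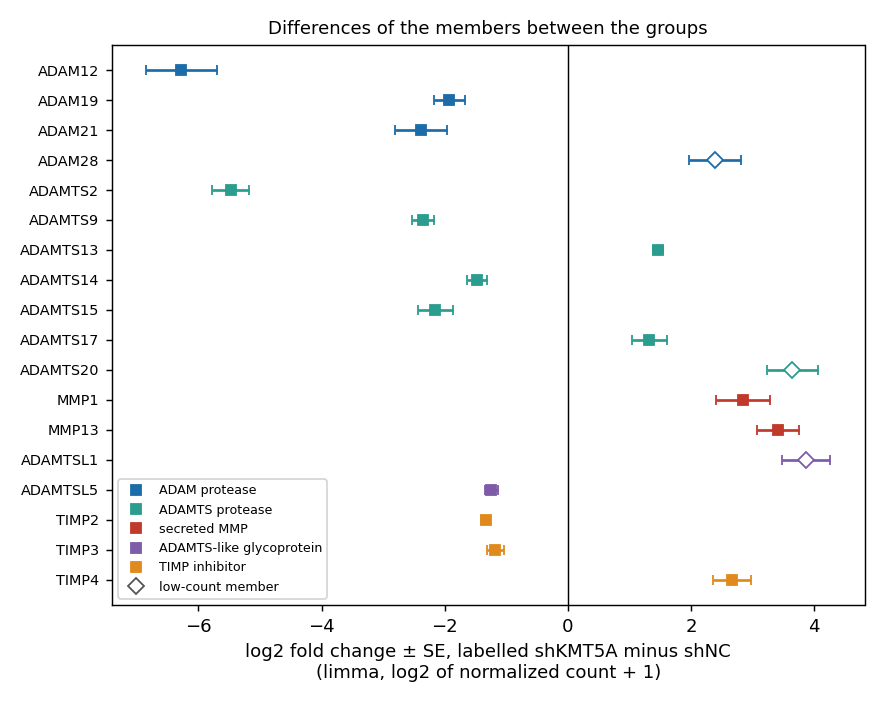
Log2 fold changes of the 18 members with standard errors (limma on log2 of the normalized count plus 1, libraries labelled shKMT5A minus shNC), coloured by role, with open diamonds for the 3 low-count members. ADAM12 (-6.28) and ADAMTS2 (-5.48) lie far to the left of the other falling members, the next of which is ADAM21 (-2.39).

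The ADAMTS proteases split by gene, with 4 lower and 3 higher. Both procollagen peptidases in the table fell. ADAMTS2 (chromosome 5, 179110851 to 179345430, minus strand), which removes the amino-terminal propeptide of fibrillar procollagens, had 112, 107 and 88.5 normalized counts in the controls against 1.05, 1.02 and 1.99 under the shKMT5A label. That left 4 reads in the latter group, and counting error alone put the 75.8-fold difference between 29.3 and 280 (log2 fold change -5.48 ± 0.30 SE, adjusted p = 2.58e-08). ADAMTS14, its close relative on chromosome 10, had 120, 133 and 124 against 48.2, 48.1 and 37.8, a 2.81-fold difference (log2 fold change -1.48 ± 0.16 SE, adjusted p = 5.17e-06). The fall of ADAMTS14 was thus far smaller, while their shNC means, 103 ± 12.5 and 126 ± 6.59, were similar. ADAMTS3, the third member of that enzyme group, was not among the rows.

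Members that cut proteoglycans moved both ways. ADAMTS9 (chromosome 3, 64515654 to 64688000, minus strand), which cuts versican and aggrecan, had 373, 391 and 433 normalized counts in the controls against 84.8, 97.2 and 55.6 under the shKMT5A label, a 5.04-fold difference (log2 fold change -2.35 ± 0.18 SE, adjusted p = 3.66e-07). ADAMTS15, another versican-cutting enzyme, had 53.3, 44.3 and 49.1 against 7.33, 10.2 and 13.9 (log2 fold change -2.16 ± 0.28 SE, adjusted p = 2.58e-05). The 2 enzymes with asparagine in the motif were both lower, as were 42.6% of all tested genes, and those with glycine moved both ways. So 2 genes cannot link the residue to direction. ADAMTS20, which also acts on versican in mouse, is a low-count member that rose, with 0.952, 0.963 and 0 normalized counts in the controls against 17.8, 13.3 and 26.8 under the shKMT5A label. Its controls held 2 reads, and its 30.3-fold difference lay between 8.0 and 256 by counting error (adjusted p = 7.94e-06).

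ADAMTS13 and ADAMTS17 rose as well. ADAMTS13 (chromosome 9, 133414358 to 133459402, plus strand), the protease of von Willebrand factor, had 204, 218 and 211 normalized counts in the controls against 618, 562 and 575 under the shKMT5A label. The libraries of each group lay close together, and the 2.77-fold difference had the smallest error of the rising members (log2 fold change 1.46 ± 0.083 SE, adjusted p = 2.80e-08). With TMM scaling the log2 fold change of ADAMTS13 was 0.87, and with DESeq2 on the reads of all 6 libraries it was 0.42. TMM shifted the log2 fold changes of all genes by a median of -0.58. ADAMTS17, linked to the fibrillin matrix, had 13.3, 20.2 and 21.6 against 35.6, 60.4 and 46.7. Its log2 fold change of 1.32 ± 0.28 (SE, adjusted p = 9.22e-04) was 0.33 with DESeq2 on all 6 libraries and 0.35 without shKMT5A replicate 3, and passed in neither (adjusted p = 0.426 and 0.50; range over the alternatives 3.38e-04 to 0.50).

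The 2 ADAMTS-like glycoproteins, which lack the protease domain and bind the matrix, went in opposite directions. ADAMTSL5, which binds fibrillin, had 506, 509 and 529 normalized counts in the controls against 208, 253 and 194 under the shKMT5A label, a 2.36-fold fall (log2 fold change -1.24 ± 0.11 SE, adjusted p = 8.01e-07). ADAMTSL1, also called punctin, is a low-count member with 0, 0 and 0.983 normalized counts in the controls, a single read in all, against 17.8, 13.3 and 21.9 under the shKMT5A label. The ratio, 53.9, came with an interval of 9.25 to 2169 from counting (limma adjusted p = 3.38e-06), so its size is poorly fixed. That interval covers counting error only, and the authors had selected this gene on the same 6 libraries.

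Among the inhibitors, the abundant TIMP2 and TIMP3 fell and the scarcer TIMP4 rose. TIMP2 (chromosome 17, 78852977 to 78925387, minus strand), which inhibits MMPs and also takes part in activating the MMP2 precursor, had 1699, 1811 and 1756 normalized counts in the controls against 681, 758 and 653 under the shKMT5A label. This 2.52-fold fall was far outside the spread of either group (1755 ± 55.9 and 697 ± 54.3; log2 fold change -1.33 ± 0.071 SE, adjusted p = 1.76e-08). TIMP3 (chromosome 22, 32801701 to 32863043, plus strand), a matrix-bound inhibitor that also blocks ADAM17 and some ADAMTS enzymes, had 874, 847 and 771 against 359, 464 and 293. Its fall was 2.23-fold (log2 fold change -1.18 ± 0.14 SE, adjusted p = 1.23e-05). TIMP4 (chromosome 3, 12153051 to 12159351, minus strand), an inhibitor best known from heart, had 15.2, 23.1 and 8.85 normalized counts in the controls against 101, 83.9 and 112 under the shKMT5A label. It rose 6.29-fold (15.7 ± 7.14 and 98.9 ± 14.2; log2 fold change 2.66 ± 0.31 SE, adjusted p = 9.60e-06). With DESeq2 on the reads of all 6 libraries the log2 fold changes were 1.61 for TIMP4, -2.38 for TIMP2 and -2.20 for TIMP3. Their sizes thus depended on the scaling. TIMP1 was not among the rows and was not analysed here.

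Levels can be compared between genes only per length, here as normalized counts per kilobase of the deposited gene length. In the shNC libraries TIMP2 (312 ± 9.92 per kilobase), TIMP3 (180 ± 11.7) and ADAMTSL5 (142 ± 3.44) led, and the proteases followed from ADAMTS9 (37.4 ± 2.90) and ADAMTS13 (37.0 ± 1.29), which did not differ beyond their spread. In the libraries labelled shKMT5A the order was TIMP2 (124 ± 9.63), ADAMTS13 (102 ± 5.10), TIMP3 (80.8 ± 18.7), ADAMTSL5 (60.2 ± 8.49), TIMP4 (59.9 ± 8.63) and MMP13 (47.3 ± 6.95). ADAMTSL5 and TIMP4 did not differ beyond their spread, nor did ADAMTS13 and TIMP3: in replicate 2 TIMP3 was the higher of that pair, at 100.7 against 98.5 per kilobase.

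Summed per kilobase, the roles shifted unequally. The 3 inhibitors summed to 502 ± 17.4 in the controls and to 264 ± 19.7 under the shKMT5A label. Sums of the 2 MMP genes were 6.15 ± 2.41 and 60.8 ± 6.82, and those of the 4 ADAM genes 50.02 ± 6.96 and 8.19 ± 4.06. For the 7 ADAMTS proteases the sums were close, 121 ± 2.99 and 129 ± 4.24, with ADAMTS13 going from 37.0 to 102 and ADAMTS9 from 37.4 to 7.42. All 13 proteases together gave 177 ± 7.77 and 198 ± 3.45. These sums cover only the genes that the authors had selected and leave out the rest of each family. They use the deposited scale and were not recomputed under other scaling. TMM shifted the log2 fold changes of all genes by a median of -0.58, and DESeq2 on all 6 libraries by -1.04. The group ratios of the ADAMTS and protease sums, 1.07 and 1.12, are plain ratios close to equal levels. On the log2 scale they are smaller in size than these shifts, so the direction of these sums depends on the scaling.

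**Figure D3:**
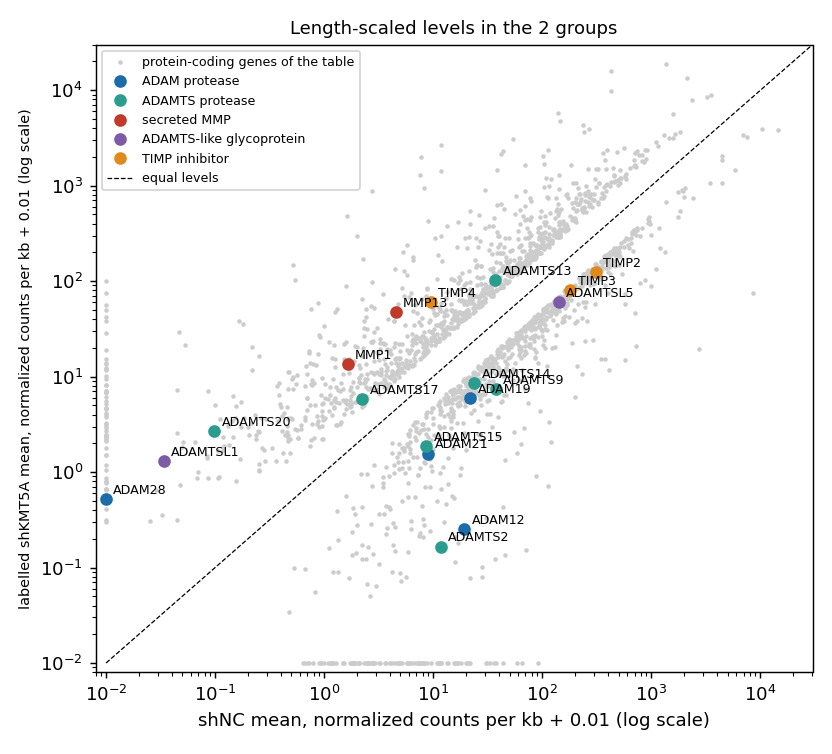
Mean normalized counts per kilobase plus 0.01 in the shNC libraries (horizontal, log axis) and in the libraries labelled shKMT5A (vertical, log axis) for the members, coloured by role, and for all protein-coding genes of the table (grey). Genes near the dashed line of equal levels are missing because the table holds only genes past a fold change; ADAM12 and ADAMTS2 lie far below the main band of falling genes, and TIMP2 (312 and 124 per kilobase) is the most abundant member in both groups.

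Within the group labelled shKMT5A the 3 libraries took unequal places among the members, a pattern chosen for description after the values were seen. Replicate 2 was the library nearest to the shNC mean for 13 of the 18 members (72.2%), and replicate 3 was the farthest for 12 of them (66.7%). Over the 2705 genes of the table without a tie, replicate 2 was nearest for 39.2% and replicate 3 farthest for 34.7%. For TIMP3 replicate 2 had 464 normalized counts and replicate 3 had 293, and for ADAM19 the values were 65.5 and 29.8. ADAM28, ADAMTS2, ADAMTS14, ADAMTS15 and ADAMTS17 were the exceptions for replicate 2. Differences between replicates 2 and 3 over the table had 9.68 times the variance of counting noise, against 2.26 to 5.52 for the other pairs of libraries within a group.

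**Figure D4:**
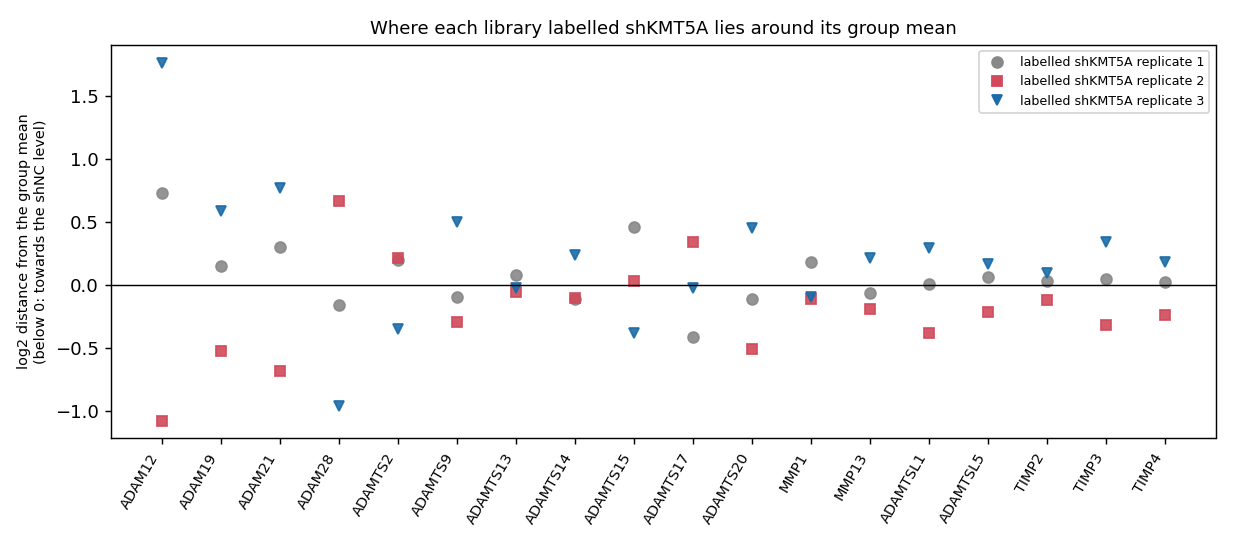
Log2 distance of each library labelled shKMT5A from the mean of its group, for each member, with the sign set so that values below 0 lie towards the shNC level. Replicate 2 (squares) lies below 0 for most members and replicate 3 (downward triangles) above it; ADAM28, ADAMTS2 and ADAMTS17 are among the exceptions.

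Other annotated genes overlap 13 of the 18 members, and 7 members share exon bases with one. The sources used here do not state whether reads were counted by strand, so reads of such pairs cannot be told apart where exons overlap. In the table, 4 overlapping genes were present, all on the opposite strand. TIMP4 overlaps SYN2, which encodes a synaptic vesicle protein, and shares 170 of its 1650 exon bases with it; SYN2 was also higher, at 2.58 ± 2.0 normalized counts in the controls and 14.0 ± 2.66 under the shKMT5A label (adjusted p = 6.01e-04). TIMP4 had the higher counts of the pair in both groups. ADAMTS9-AS1, antisense to ADAMTS9 with 174 shared exon bases, was lower like ADAMTS9 (11.6 ± 2.50 and 2.03 ± 2.05, adjusted p = 0.00170).

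ADAM19 overlaps 2 such genes, which went in opposite directions. CYFIP2, an actin regulator that shares 62 exon bases with ADAM19, was lower, at 1635 ± 81.5 and 605 ± 18.0 (adjusted p = 5.65e-09), and had far more counts than ADAM19 in both groups. NIPAL4, which shares no exon base with it, was without reads in the controls and had 25.6 ± 5.94 normalized counts under the shKMT5A label. The part of overlapping transcripts in the values of TIMP4, ADAMTS9 and ADAM19 was not tested. MMP1, TIMP2, ADAMTSL5 and ADAMTS17 share exon bases with genes that were not among the rows. TIMP3 lies within SYN3 and shares no exon base with it.

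**Figure D5:**
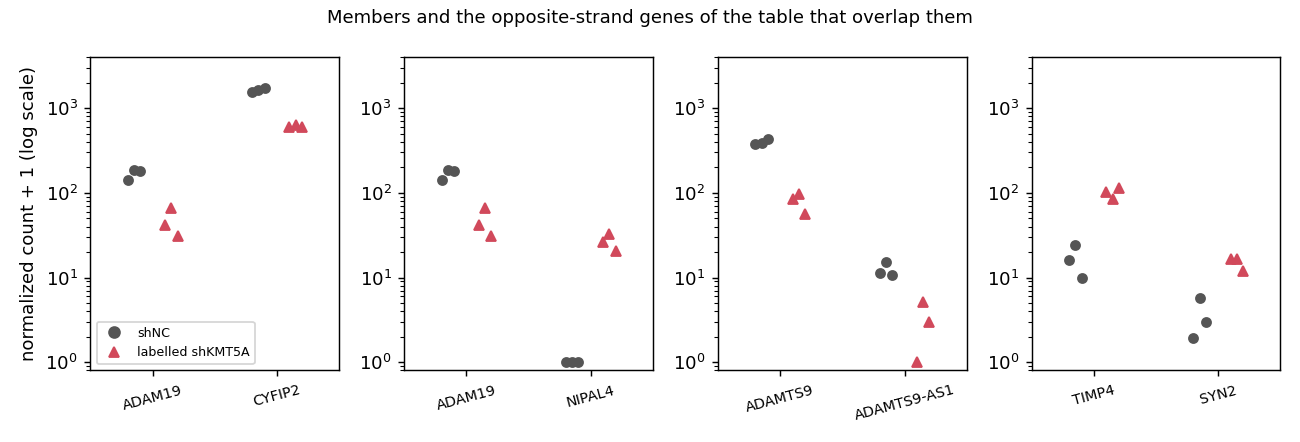
Normalized counts plus 1 (log axis) of 3 members and of the 4 opposite-strand genes of the table that overlap them, in the shNC libraries (circles) and the libraries labelled shKMT5A (triangles). TIMP4 and SYN2 are both higher, ADAMTS9 and ADAMTS9-AS1 both lower, and CYFIP2 falls while NIPAL4 rises beside ADAM19.

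The members lie on 12 chromosomes, and MMP1 and MMP13 are the one pair within 500 kilobases of each other. Protein-coding genes of the table within that window of a member gave 24 pairs, of which 17 (70.8%) had the direction of the member, against 78.1% of 5424 such pairs over the whole table. Around TIMP4 all 4 neighbours, PPARG, SYN2, TAMM41 and VGLL4, were higher like it. Beside MMP1, the inhibitor of apoptosis genes BIRC2 and BIRC3 were higher, and beside ADAMTS2 the autophagy receptor gene SQSTM1 was higher while ADAMTS2 fell.

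RefSeq promoters (GRCh38.p14) were available for 12 members: ADAM12, ADAM19, ADAM21, ADAMTS2, ADAMTS13, ADAMTS14, ADAMTS17, ADAMTS20, ADAMTSL1, ADAMTSL5, TIMP3 and TIMP4. The 250 bases before the RefSeq start are shown for the 2 members that were almost lost and for the pair of inhibitors that moved in opposite directions. Capitals mark CpG dinucleotides, the sites of DNA methylation. The windows are chr10:126388478-126388727 (minus strand) for ADAM12, chr5:179345462-179345711 (minus) for ADAMTS2, chr22:32801455-32801704 (plus) for TIMP3 and chr3:12158913-12159162 (minus) for TIMP4. The RefSeq start can differ from the outer end of the GENCODE gene given above, and the windows of TIMP4, ADAMTS13, ADAMTSL1 and ADAMTSL5 lie inside the GENCODE gene.
ADAM12: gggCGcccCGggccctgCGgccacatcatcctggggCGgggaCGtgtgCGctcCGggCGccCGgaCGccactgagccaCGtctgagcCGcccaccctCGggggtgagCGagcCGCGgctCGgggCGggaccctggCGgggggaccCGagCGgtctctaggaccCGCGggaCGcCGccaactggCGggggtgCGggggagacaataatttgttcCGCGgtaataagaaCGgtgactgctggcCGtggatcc
ADAMTS2: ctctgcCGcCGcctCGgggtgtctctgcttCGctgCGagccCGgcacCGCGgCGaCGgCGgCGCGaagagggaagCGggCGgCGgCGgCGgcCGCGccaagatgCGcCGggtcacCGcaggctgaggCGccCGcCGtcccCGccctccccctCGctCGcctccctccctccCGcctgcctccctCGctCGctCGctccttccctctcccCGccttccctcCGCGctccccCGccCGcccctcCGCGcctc
TIMP3: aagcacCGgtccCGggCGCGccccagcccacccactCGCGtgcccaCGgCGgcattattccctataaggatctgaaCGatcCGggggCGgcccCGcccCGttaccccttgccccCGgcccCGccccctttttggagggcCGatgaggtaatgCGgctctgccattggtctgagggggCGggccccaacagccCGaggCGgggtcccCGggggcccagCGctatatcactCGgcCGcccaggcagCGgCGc
TIMP4: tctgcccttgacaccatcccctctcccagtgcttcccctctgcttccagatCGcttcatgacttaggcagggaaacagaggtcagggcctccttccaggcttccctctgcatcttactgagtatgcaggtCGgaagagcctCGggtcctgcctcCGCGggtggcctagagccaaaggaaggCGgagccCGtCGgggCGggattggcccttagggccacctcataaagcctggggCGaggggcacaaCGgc
ADAM12 held 31 CpG in this window, more than 89.4% of the 27305 promoters of the table of sequences, and ADAMTS2 held 40, more than 97.9%. TIMP3 held 26 and TIMP4 held 11, which is the median of all promoters. ADAMTS20, which rose, held 22, and ADAM21, which fell, held 1. DNA methylation was not measured in these samples.

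AP-1 and IRF motifs were searched on both strands of the same windows. The AP-1 motif TGANTCA was in 0 of the 12 and in 6.60% of all promoters, and the core of the interferon-stimulated response element (GAAA, any 2 bases, GAAA) was in 1, ADAMTSL1, and in 3.07% of all promoters. The promoters of ADAM28, ADAMTS9, ADAMTS15, MMP1, MMP13 and TIMP2 were not used here.

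Some of the proteins that such proteases shed were in the table. Their share was not compared with that of all genes. In the list of 33 shed cell-surface proteins, 8 were in the table, 7 higher and 1 lower, where 57.4% of all tested genes were higher (42.0% of those called with DESeq2 on all 6 libraries). Their median log2 fold change was 1.79 against 1.13 over all tested genes. TNF, which ADAM17 releases, had 13.3, 10.6 and 8.85 normalized counts in the controls against 270, 312 and 314 under the shKMT5A label (adjusted p = 2.50e-09). NRG1, a neuregulin, had 7.62, 5.78 and 10.8 against 208, 228 and 163 (log2 fold change 4.49 ± 0.25 SE, adjusted p = 2.48e-08). ADAM19, a neuregulin sheddase, was lower in the same libraries. None of the 13 regulators of shedding and none of the 11 other metzincins and ADAMTS relatives was among the rows.

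Matrix substrates in the table divided. Of 22 listed, 5 were present, 2 higher and 3 lower, with a median log2 fold change of -1.45. DCN, the proteoglycan decorin, had 15.2, 14.4 and 15.7 normalized counts in the controls and no read under the shKMT5A label (adjusted p = 3.58e-07). THBS2, a matrix glycoprotein, had 38.1, 27.9 and 17.7 against 12.6, 3.07 and 2.98 (adjusted p = 0.00153). COL3A1, a fibrillar procollagen, rose from 14.2 ± 2.86 to 65.7 ± 6.24 normalized counts (adjusted p = 5.32e-06), in the libraries in which both procollagen peptidases of the table were lower. A link between them was not tested. FN1, the listed substrate with the most counts, fell from 1485 ± 65.3 to 545 ± 34.1 (limma adjusted p = 1.06e-08).

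Other protease systems also held members of both directions. Of 12 plasminogen activation genes 3 were in the table, 2 higher and 1 lower. PLAT, tissue plasminogen activator, fell from 90.8 ± 8.96 to 26.9 ± 9.51 normalized counts (adjusted p = 3.59e-05), and PLAUR, the urokinase receptor, rose from 859 ± 37.4 to 2615 ± 251 (adjusted p = 8.13e-09). Of 15 cathepsins 5 were present, 3 higher and 2 lower, and CTSS, cathepsin S of antigen processing, rose from 11.6 ± 7.01 to 418 ± 40.2 (adjusted p = 3.37e-07) while CTSV fell from 648 ± 41.5 to 244 ± 55.9 (adjusted p = 4.74e-06). Of 8 other inhibitors, SPOCK1, the core protein of the proteoglycan testican, was present and rose from 9.31 ± 2.81 to 85.7 ± 11.8 (adjusted p = 7.46e-07). Of 13 AP-1 and ETS factors, which drive many MMP promoters, 4 were present, 2 in each direction. JUN rose from 714 ± 62.4 to 3740 ± 174 (adjusted p = 2.85e-10) and FOS fell from 206 ± 35.9 to 66.7 ± 4.72 (adjusted p = 1.74e-06).

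Markers of other cell types were checked because stromal cells and leukocytes express many of these proteases, although all 6 libraries were of RKO, a carcinoma line. Of 10 fibroblast markers 4 were in the table, and their summed normalized counts were 147 to 167 in the controls and 91.1 to 113 under the shKMT5A label. LUM and DCN were lower, with DCN at 0 in every library labelled shKMT5A, while COL3A1 and ACTA2 were higher. The sums of 2 of 8 endothelial markers ranged from 14.4 to 25.6 and from 4.19 to 8.19, TEK being lower and CDH5 higher from 0, and those of 4 of 15 leukocyte markers ranged from 489 to 548 and from 114 to 139. CORO1A, the most abundant of these, fell from 490 ± 27.3 to 105 ± 12.9, GZMB and CD79A were lower, and CD8A was higher, at 0.638 ± 0.553 and 13.2 ± 3.53. The table held 6 of 16 markers of colon epithelium, 3 lower and 3 higher. Their sums, 144335 to 157172 and 45798 to 47267, were nearly all from KRT8, KRT18 and KRT19, which were lower; KRT8 alone had 100213 ± 4818 and 26247 ± 395. AGR2 (29.6 ± 3.58 and 77.6 ± 25.4), MUC2 (0.973 ± 0.983 and 10.9 ± 4.72) and CDH17, at 0 in the shNC libraries, were higher. In bulk RNA, fewer cells of a type and less RNA per cell cannot be told apart, and the part of other cells in the values of the members was not tested.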

How the data were processed

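Total RNA of 6 RKO libraries was sequenced. Per the submitters' processing notes, the build was GRCh38 (hg38) and the tools, whose roles are not given in the sources used here, included DESeq2 1.20.0, featureCounts 1.5.0-p3, HISAT2 2.0.5, CASAVA 1.8 and fastp. The deposited signal values are read counts per gene divided by 1 factor per library by the authors: dividing each column by what a read was worth gave whole reads for 100% of values (tolerance 0.001). The table also has the log2 fold change and the p-value, raw and adjusted, that the authors computed. Columns were matched to samples by treatment and number, and the positions of all 18 members were those of GENCODE 29.

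The members and lists were chosen with earlier results of these data known. All 2885 genes had a mean of at least 1 normalized count and were tested with limma 3.58.1 in R 4.3.3 (mean trend, robust variances through statmod 1.5.0), on log2(value + 1) with the group as the 1 term, with Benjamini-Hochberg adjustment over the table at 0.05. Fold changes on that scale understate those of low genes, while ratios are of group means. Intervals are exact, at 95%, and cover counting error only. The floor of 3 counts stands in for a group without reads and leaves out the counting error of the other group. edgeR 4.0.16 and DESeq2 1.42.0 were run on recovered reads, first without shKMT5A replicate 3, where a read was worth 0.994 and an automated test of recovery was not passed so near to 1. Since its values also came out whole, both were then run on all 6 libraries, a choice made after seeing the data. The limma step was tested on simulated data. Every member is reported. Of each list, the 2 genes with the largest absolute fold change are named, and markers are counted. COL3A1 and FN1 are named in addition. Exact permutation used scipy 1.17.1 (Python 3.11.15).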

Additional observations from a re-analysis of the deposited data

How the results depend on the processing

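The 18 members gave 339 values under 19 alternatives, all in the main direction, and 336 kept their side of the threshold; the 3 exceptions, ADAM28 and ADAMTS17 with DESeq2, stand in the report. The authors' selection on these 6 libraries favours such stability, which is thus no separate evidence. With a mean of at least 10 normalized counts required, 5 members were higher, since the 3 low-count members were then not tested. DESeq2 called 786 genes of the table higher without shKMT5A replicate 3 and 891 on all 6 libraries, the latter added after seeing the data. Leaving out 1 library gave 8 higher and 10 lower members each time, 1647 to 1653 higher and 1225 to 1228 lower genes, and 1.48 to 1.62 for the log2 fold change of KMT5A, which was 0.94 with TMM, 0.96 with equal totals, 0.99 with edgeR and 0.59 with DESeq2 (0.93 and 0.497 on all 6 libraries). Scaling shifted the log2 fold changes of all genes by a median of -0.23 (equal medians), -0.58 (TMM) and -0.56 (equal totals). The log2 fold change of ADAMTSL1 was 6.30 with a pseudocount of 0.1 and 2.08 with a pseudocount of 5, that of ADAMTS20 5.27 and 2.08, that of ADAM12 -7.72 and -4.80. With the replicate block, 1655 genes were higher and 1228 lower, and 8 and 10 members, the same counts as without it. Same-numbered libraries did not deviate together in these selected rows (correlations -0.036, -0.031 and 0.0084 over 2380 genes). Such correlations cannot tell whether same-numbered libraries were prepared together. Values of members under 10 reads in a group are limited by depth.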
